A study of Mus musculus with 2 samples.

Results

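Metallothioneins and the transporters that move zinc into and out of hepatocytes were examined in regenerating mouse livers as a set of 8 genes, taken from 33224 gene symbols with a value. The set holds the metallothioneins Mt1 and Mt2, the metal-sensing transcription factor Mtf1, the importers Slc39a14, Slc39a4 and Slc39a8, and the exporters Slc30a1 and Slc30a10. They were chosen by name and function, by their symbols in the gene column of the expression table, with earlier results of these data known. All 8 had a value in both livers. Hepatic RNA of male C57BL/6 mice was sequenced 48 hr after partial hepatectomy (PH), as 1 library of wild type (WT) and 1 library of PPARbeta-null (KO) liver. The samples carry an age of 4 months, while the series text gives another age and the paper an age range that includes it. The labels name the KO only as PPARbeta-null, with no allele, PPARbeta being a lipid-sensing nuclear receptor encoded by Ppard, and livers without PH were not analysed here. Whether a library holds RNA of a single mouse or of several was not stated.

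Metallothioneins are small, cysteine-rich proteins that bind zinc and copper and buffer them inside the cell. In liver their genes are known to be switched on by zinc through Mtf1, which binds metal response elements in promoters, and also by glucocorticoids, by IL-6 through Stat3 and by oxidative stress. ZIP transporters, encoded by the Slc39a genes, bring zinc into the cytosol, and ZnT transporters, encoded by the Slc30a genes, take it out of the cytosol or into vesicles. During an acute phase response the liver takes up zinc from plasma, a process in which Slc39a14 and the metallothioneins are known to take part.

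Levels are given as FPKM, a count of fragments divided by exon length and by the size of the library, so that genes can be compared with each other. With 1 library per genotype there was no replicate, and no difference below could be tested against the spread between mice. The intervals in brackets are 95% intervals that cover counting error only, computed from estimated depths of 53.0 (WT) and 55.3 (KO) fragments per FPKM and kilobase. Expressed genes are those whose FPKM averaged 1 or more over both libraries. Of these 11723 genes, 75.6% were lower and 24.4% higher in KO by any amount, and their median log2 KO/WT was -0.24 with quartiles of -0.48 and -0.0074. Ppard itself stood at 2.67 FPKM in WT against 2.42 FPKM in KO over the whole locus, so the level of the targeted gene did not tell the libraries apart. Hepatocyte markers were abundant in both libraries, with a summed FPKM of 10656 in WT and 10921 in KO over 5 of 6 markers. Of these 5, 3 were higher and 2 lower in KO, and Cps1, the first enzyme of the urea cycle, was 2.15-fold lower, at 1597 FPKM in WT against 743 in KO. Alb was marked as having too many reads for an estimate.

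The metallothionein pair and the manganese exporter Slc30a10 were higher in the KO library, and the importer Slc39a4 was lower. Of the 8 genes, 6 were higher and 2 lower in KO by any amount, where 24.4% and 75.6% of expressed genes were. The 2 lower were Slc39a4 and Mtf1, whose row is shared with Yrdc. Slc39a8 is counted as higher, though the counting interval of its KO/WT ratio ran from 0.981 to 1.11. Past 1.5-fold, 3 of 8 were higher in KO, where 4.20% of expressed genes were, and 1 of 8 was lower, where 19.9% were. Past 2-fold, Slc30a10 was higher, a call that 1.77% of expressed genes shared, and Slc39a4 was lower, a call shared by 8.69%. Slc39a14 and Slc39a8 each had a KO/WT ratio of 1.05. The 8 genes spanned levels from 4.04 to 984 FPKM in WT and from 6.64 to 1643 FPKM in KO.

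**Figure D1:**
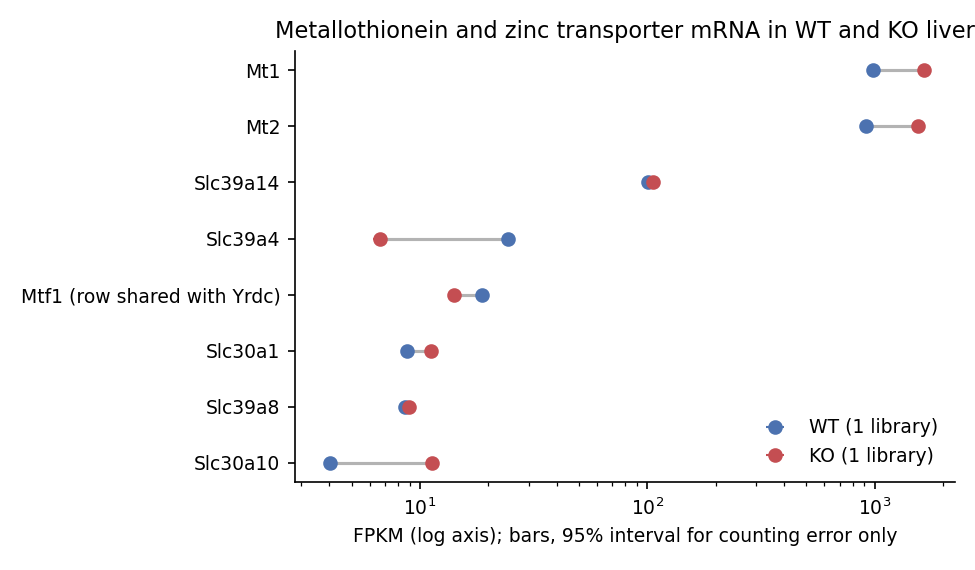
FPKM of the 8 genes on a log axis, WT in blue and KO in red, with 95% intervals for counting error that are mostly narrower than the points. Mt1, Mt2 and Slc30a10 have the KO point to the right, Slc39a4 has it far to the left, and for Slc39a14 and Slc39a8 the points nearly coincide.

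Mt1 and Mt2 encode the metallothioneins of liver. Mt1 was at 984 (973 to 994) FPKM in WT and at 1643 (1629.5 to 1656) in KO. Mt2 stood at 912 (901 to 923) FPKM in WT against 1545 (1532 to 1559) FPKM in KO. The KO/WT ratios were 1.67 (1.65 to 1.69) for Mt1 and 1.70 (1.67 to 1.72) for Mt2, log2 values of 0.74 and 0.76, and the counting intervals of these ratios overlapped. In both libraries the pair was among the most abundant mRNAs, Mt1 in place 76 of 33224 in WT and 53 in KO, and Mt2 in place 81 and 56. The summed FPKM of both genes was 1895 in WT and 3188 in KO, 0.311% and 0.535% of all FPKM, and its KO/WT ratio was 1.68. Since whole liver was sequenced, more cells with these mRNAs and more mRNA per cell cannot be told apart.

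The genes are neighbours on the plus strand of chromosome 8, Mt2 at chr8:96696518-96697467 and Mt1 at chr8:96702989-96704225 (NCBI37, mm9), with 5521 bases between them. The proportion between them was nearly the same in both livers, with 1.08 as much Mt1 as Mt2 in WT and 1.06 as much in KO. Mt3 and Mt4, the metallothioneins of brain and of stratified epithelia, lie in the same cluster, which spans 43.1 kb. Mt3 had an FPKM of 0.0338 in WT and Mt4 one of 0.0499, and both were listed at 0 in KO. At such levels no ratio was formed.

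Mtf1 binds metal response elements, whose core was searched here as TGCACNC and as TGCGCNC on both strands, in windows from 250 bases before to 50 bases after the RefSeq start sites (GRCm38.p6). The first core stood in 12.6% and the second in 15.4% of 32851 such windows of all genes. Of the 8 genes, 6 had a window, and Slc39a14 and Slc39a4 had none. Those of the metallothionein pair are shown because both genes were higher in KO and held the most matches per window along with Slc30a10, and the capitals mark the matches. The Mt1 window lies at chr8:94178839-94179138 and that of Mt2 at chr8:94172368-94172667, both on the plus strand.
Mt1: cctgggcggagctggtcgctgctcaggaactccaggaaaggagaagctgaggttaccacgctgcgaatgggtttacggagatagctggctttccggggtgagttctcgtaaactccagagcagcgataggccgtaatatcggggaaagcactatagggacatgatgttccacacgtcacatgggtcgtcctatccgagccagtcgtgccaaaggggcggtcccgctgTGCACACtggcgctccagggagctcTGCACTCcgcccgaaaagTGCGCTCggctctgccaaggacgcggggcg
Mt2: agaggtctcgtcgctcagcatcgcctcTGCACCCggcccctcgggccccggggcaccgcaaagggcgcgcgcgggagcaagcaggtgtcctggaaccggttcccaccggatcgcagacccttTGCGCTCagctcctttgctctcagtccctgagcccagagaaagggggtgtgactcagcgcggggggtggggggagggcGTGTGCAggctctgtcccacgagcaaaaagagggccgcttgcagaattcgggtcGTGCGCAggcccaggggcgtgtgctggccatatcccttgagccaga
Mt1 had 3 matches, all on the plus strand, with first bases at positions -23, 3 and 21. Here the RefSeq start site of the window is position 1 and the base before it is -1. The annotation lists 2 transcripts of Mt1, and only 1 start site was used, so the positions hold for that site alone. Matches outside the window were not counted. Mt2 had 4 matches, on the plus strand at -223 and -128 and on the minus strand at -50 and 5. At least 3 matches were found in 1.97% of all windows, and at least 4 in 0.517%. A match is a description of letters, and binding of Mtf1 was not measured in these livers.

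**Figure D2:**
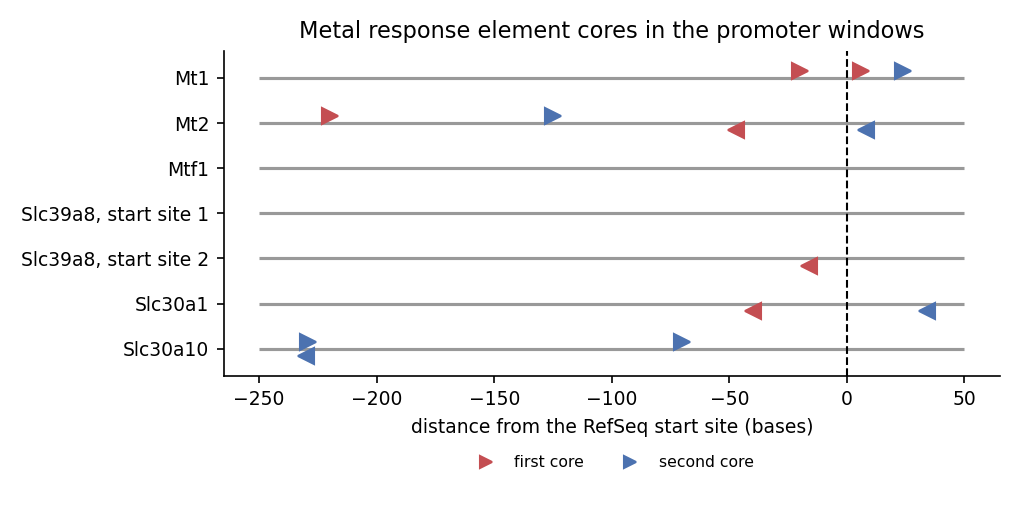
Matches to the metal response element cores in 300-base windows around the start sites, with distance from the start site on the x axis and 1 line per window. Triangles on the line's upper side are on the plus strand and those on its lower side on the minus strand, red for the first core (TGCACNC) and blue for the second (TGCGCNC), and the windows of Mt2, Mt1 and Slc30a10 hold 4, 3 and 3.

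Among 788 genes whose FPKM averaged 100 or more, the ones whose log2 KO/WT was nearest to that of the summed pair (0.75) were Hpx, Cyp2d26 and Fgb. Hpx, the heme-binding plasma protein hemopexin, was at 5229.5 FPKM in WT and at 8795 in KO. Cyp2d26, a cytochrome P450, stood at 278 FPKM in WT against 468 FPKM in KO. Fgb, the beta chain of fibrinogen, was at 2698 FPKM in WT and at 4534 in KO. The measure is the absolute difference of log2 ratios from 2 libraries, and 21 genes lay within 0.05 of the pair, so the likeness describes a single pair of values. Hpx and Fgb are also acute phase genes.

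Mtf1 could not be measured alone. The deposited row named Mtf1 and Yrdc together, over a locus of chr4:124479348-124539415 (mm9), in which Mtf1 lies at 124479348 to 124527044 and Yrdc at 124527923 to 124532486, both part of 1 joint value. That row stood at 18.8 (18.3 to 19.2) FPKM in WT against 14.1 (13.7 to 14.4) FPKM in KO, and the KO/WT ratio was 0.749 (0.724 to 0.775), or log2 -0.42. These intervals treat the whole value as Mtf1, whose longest transcript has 7631 bases. The longest of Yrdc has 1634, so any share of Yrdc rests on fewer fragments and would make the intervals wider. The value was lower in KO, within 1.5-fold, and below the median of expressed genes. The locus also overlaps 1110065P20Rik on the minus strand, which was at 12.4 FPKM (WT) and 13.8 (KO) in a row of its own. The Mtf1 window held no match to either core.

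Of the importers, Slc39a14 was the most abundant ZIP mRNA in both livers. It encodes ZIP14, which carries zinc, manganese and iron across the hepatocyte membrane. At chr14:70703274-70751232 on the minus strand, it was at 100.6 (99.5 to 101.8) FPKM in WT and at 106 (105 to 107) in KO. The KO/WT ratio was 1.05 (1.04 to 1.07), log2 0.08. The annotation lists 14 transcripts of this gene, and an interval computed with their median length in place of the longest ran from 1.01 to 1.10. Against the pair of metallothioneins, the proportion of mRNA differed between the livers, with 18.8 FPKM of Mt1 and Mt2 for each FPKM of Slc39a14 in WT and 30.0 in KO.

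Slc39a8 encodes ZIP8, a relative of ZIP14 that also carries zinc and manganese and recovers manganese from bile. It lies on the plus strand at chr3:135488243-135551536 and stood at 8.60 (8.22 to 8.99) FPKM in WT against 8.99 (8.60 to 9.38) FPKM in KO. The ratio was 1.05 with an interval of 0.981 to 1.11, so that a difference was not detectable beyond counting error in the values as deposited. That call ended with other scalings of the libraries, since the log2 value of 0.06 became 0.27 with equal upper quartiles and 0.30 with centring on the median of expressed genes. Slc39a14 stood at 11.7 times the level of Slc39a8 in WT and at 11.8 times in KO. RefSeq gives Slc39a8 a pair of start sites, with no match to the cores in the first window and 1 in the second.

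Slc39a4, in contrast, was the member with the largest fold lower in KO, and in the values as deposited its difference was larger than that of Slc30a10. With equal upper quartiles the order of both turned, at log2 -1.67 for Slc39a4 and 1.68 for Slc30a10, as it did with centring, at -1.64 and 1.72. It encodes ZIP4, the zinc importer of the gut whose loss causes the zinc deficiency disease acrodermatitis enteropathica. At chr15:76442815-76447322 on the minus strand, Slc39a4 was at 24.3 (23.4 to 25.2) FPKM in WT and at 6.64 (6.19 to 7.10) in KO. The WT/KO ratio was 3.66 (3.39 to 3.96), log2 KO/WT -1.87, from about 2920 fragments in WT and 831 in KO. It went from the fourth to the last place in the order of the 8 genes, and among expressed genes its KO/WT ratio was in place 367 from the lowest. Slc39a14 was 4.14 times as abundant as Slc39a4 in WT and 15.98 times in KO.

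The exporters were both higher in KO, and by unequal amounts. Slc30a1 encodes ZnT1, the zinc exporter of the plasma membrane and, like Mt1, a target of Mtf1. It stood at 8.74 (8.39 to 9.09) FPKM in WT against 11.2 (10.8 to 11.6) FPKM in KO, a KO/WT ratio of 1.28 (1.21 to 1.35), log2 0.36. The gene lies on the plus strand at chr1:193730646-193737126, and its deposited locus is wider and takes in 1700034H15Rik, which overlaps it on the minus strand. That gene was at 0.794 FPKM in WT and at 1.19 in KO.

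Slc30a10 encodes ZnT10, which in liver exports manganese into bile and whose loss causes manganese overload. It stood at 4.04 (3.82 to 4.27) FPKM in WT against 11.3 (10.9 to 11.6) FPKM in KO. The KO/WT ratio was 2.79 (2.61 to 2.97), log2 1.48, from about 1250 fragments in WT and 3632 in KO, and was the 81st highest among the 11723 expressed genes. In WT, Slc30a1 was 2.16 times as abundant as Slc30a10, whereas in KO the levels were nearly equal, with 0.993 of Slc30a1 for each of Slc30a10, and their counting intervals overlapped. The gene lies on the plus strand at chr1:187278727-187292641 and overlaps the antisense lincRNA Gm2061. Gm2061 was at 0.308 FPKM in WT and at 0.867 in KO, a KO/WT ratio of 2.81, and since the library kit does not mark strand, reads from the shared stretch cannot be told apart.

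The windows of the exporters are shown for comparison with those of the metallothioneins, again with matches in capitals. They lie at chr1:191906531-191906830 for Slc30a1 and at chr1:185454598-185454897 for Slc30a10 (GRCm38.p6, plus strand).
Slc30a1: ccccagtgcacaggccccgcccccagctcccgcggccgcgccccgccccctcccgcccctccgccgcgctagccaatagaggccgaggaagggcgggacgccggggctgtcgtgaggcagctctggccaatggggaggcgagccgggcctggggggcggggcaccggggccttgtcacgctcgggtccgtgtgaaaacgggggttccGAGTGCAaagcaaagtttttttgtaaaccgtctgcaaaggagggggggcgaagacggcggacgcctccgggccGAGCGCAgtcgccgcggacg
Slc30a10: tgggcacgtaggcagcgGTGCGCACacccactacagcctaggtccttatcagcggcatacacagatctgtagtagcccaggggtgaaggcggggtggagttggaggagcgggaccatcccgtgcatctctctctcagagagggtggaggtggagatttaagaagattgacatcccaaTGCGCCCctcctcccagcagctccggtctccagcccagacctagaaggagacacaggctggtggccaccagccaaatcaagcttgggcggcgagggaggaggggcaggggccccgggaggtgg
Slc30a1 had 2 matches, both on the minus strand, at -43 and 31, and 7.11% of all windows held at least 2. Slc30a10 had 3, of which the minus strand match at -233 and the plus strand match at -232 overlap each other, and the last lies on the plus strand at -73. The GC content was 73.0% in the Slc30a1 window, 62.7% for Slc30a10, 60.7% for Mt1 and 67.7% for Mt2.

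**Figure D3:**
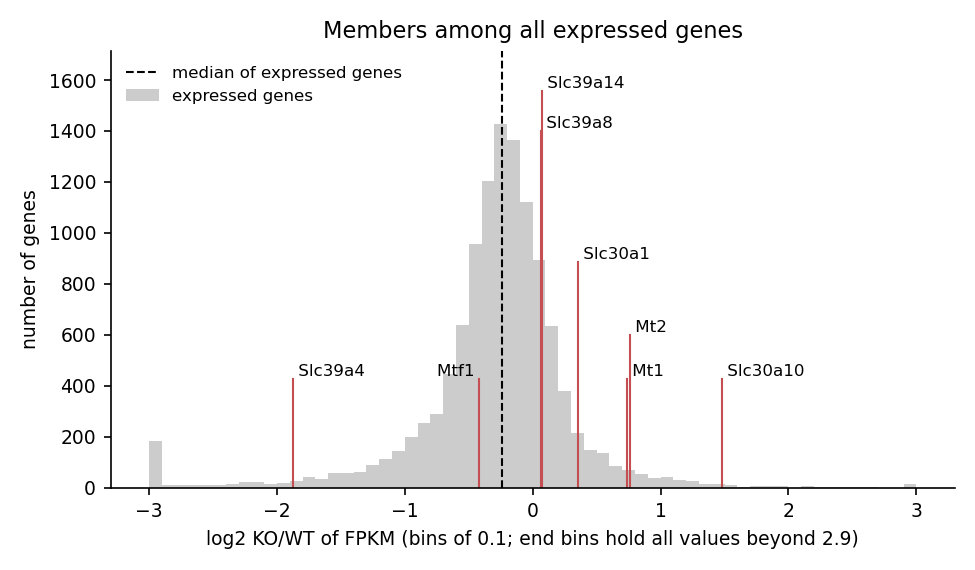
Number of expressed genes (y axis) by log2 KO/WT of FPKM (x axis, bins of 0.1), with the 8 genes as red lines and the median of all expressed genes, -0.24, as a dashed line. Slc39a4 lies in the lower and Slc30a10 in the upper tail, Mt1 and Mt2 lie side by side at 0.74 and 0.76, and Mtf1 stands for the row shared with Yrdc.

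The order of levels in WT was Mt1, Mt2, Slc39a14, Slc39a4, the Mtf1 row, Slc30a1, Slc39a8 and Slc30a10, and the counting intervals of the neighbours Slc30a1 and Slc39a8 overlapped. In KO the order was Mt1, Mt2, Slc39a14, the Mtf1 row, Slc30a10, Slc30a1, Slc39a8 and Slc39a4, and those of Slc30a10 and Slc30a1 overlapped. For all other neighbours the intervals were apart, which covers counting error alone. Since most expressed genes were lower in KO, scaling shifted each log2 value. Centring both libraries on the median of expressed genes added 0.237, which took Slc30a1 past 1.5-fold (log2 0.59) along with Mt1, Mt2 and Slc30a10, and changed the direction of none of the 8 genes. After centring, 4 of 8 were more than 1.5-fold higher, where 7.40% of expressed genes were.

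The metallothionein, ZIP and ZnT families gave the setting, and they include all genes of the examined set other than Mtf1. Of 28 metallothionein, ZIP and ZnT genes, 20 were expressed, 3 were more than 1.5-fold higher in KO, 3 more than 1.5-fold lower, and 14 within 1.5-fold. Of all expressed genes, 4.20% were past 1.5-fold higher and 19.9% past 1.5-fold lower, so the number that were lower is near the share of all genes. The median log2 KO/WT of the 20 was 0.03, with genes of the set included. Of the 20, 13 lie outside the set. The 3 that were higher were Mt1, Mt2 and Slc30a10, all of them in the set. Those that were lower were Slc39a4, which is in the set, and Slc39a10 and Slc30a7, which are outside it. Slc39a10, a plasma membrane importer, stood at 1.63 FPKM in WT against 0.565 FPKM in KO. Slc30a7, which loads zinc into the secretory pathway, was at 5.65 FPKM in WT and at 3.49 in KO. Mt1 and Mt2 made up 83.8% of the summed FPKM of the 28 genes in WT and 89.8% in KO.

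Among the 14 ZIP genes, 11 were expressed, 5 of them higher and 6 lower in KO, with Slc39a14, Slc39a4 and Slc39a8 included. Of all expressed genes, 24.4% were higher and 75.6% lower. The median log2 over the 13 ZIP genes averaging 0.1 FPKM or more was -0.06, a value that turned to 0.17 with centring. Slc39a1, an importer of the plasma membrane, stood at 39.4 FPKM in WT against 41.5 FPKM in KO. Slc39a7, which releases zinc from the endoplasmic reticulum, shared its row with H2-Ke6, at 71.0 in WT and 74.6 in KO. Slc39a5, Slc39a6 and Slc39a12 were below the limit for expressed genes. Among the 10 ZnT genes, 7 were expressed, 4 higher and 3 lower in KO, beside the same shares of all expressed genes. Slc30a1 and Slc30a10 are among the higher. The ZnT median was -0.08 over 8 genes, which turned to 0.16 with centring. Slc30a5, a partner in loading the secretory pathway, was at 26.4 FPKM in WT and at 26.5 in KO, and Slc30a9, a ZnT-related gene, at 24.3 and 21.7. Slc30a2, Slc30a3 and Slc30a8 were below the limit.

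**Figure D4:**
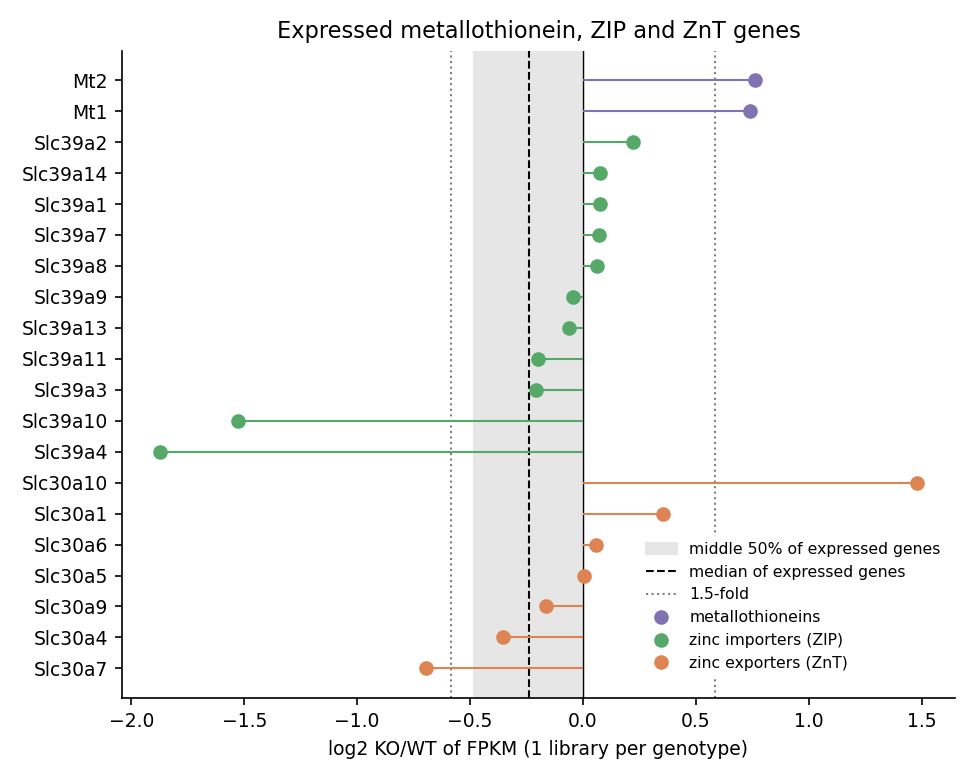
Log2 KO/WT of FPKM (x axis) of the 20 expressed genes of the metallothionein, ZIP and ZnT families, with dotted lines at 1.5-fold, a grey band for the middle 50% of expressed genes and a dashed line at their median. Mt1, Mt2 and Slc30a10 lie beyond the upper dotted line, and Slc39a4, Slc39a10 and Slc30a7 beyond the lower one.

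Genes known to share inducers with the metallothioneins were counted in lists of known function. Of 18 acute phase genes of the IL-6 and STAT3 response, 17 were higher in KO, 16 by more than 1.5-fold and 7 by more than 2-fold, with a median log2 of 0.92. The pair of metallothioneins, with a median of 0.75, lay below that median. Among all expressed genes, 24.4% were higher by any amount, 4.20% by more than 1.5-fold and 1.77% by more than 2-fold. Saa2, Saa1 and Hp had the highest mean FPKM of both libraries in the list, whereas Hpx was the highest in WT, and Saa3 had the largest ratio. These serum amyloid A and haptoglobin genes had FPKM of 2592 and 14274 for Saa2, 2839 and 13137 for Saa1, and 4002 and 10602 for Hp, in WT and KO. Saa3 had 5.46 in WT and 152 in KO, while Stat3, the transcription factor itself, had 55.3 in WT and 50.9 in KO. The list was chosen with earlier results of these data known, and acute phase genes placed in other lists were not counted in it. Of these, Hamp of the iron list was 4.45-fold lower in KO, and Cp of the copper list was 1.83-fold higher.

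The glucocorticoid-induced genes were the second group of known inducible genes. Of 12, 8 were lower and 4 higher in KO, where 75.6% of expressed genes were lower, so the count in each direction is near that of all genes. More than 1.5-fold lower were 6 of them and more than 1.5-fold higher 2, beside 19.9% and 4.20% of expressed genes. The median log2 was -0.66, and -0.43 with centring. Tat, a tyrosine-degrading enzyme, stood at 1115 FPKM in WT against 595 FPKM in KO, and the clock gene Per1 was 2.46-fold lower in KO. Pck1, of gluconeogenesis, had 852 in WT and 818 in KO, and Errfi1, an inhibitor of the EGF receptor, 339 and 384. Igfbp1, an IGF-binding protein, was 3.33-fold higher in KO, with 108 in WT and 360 in KO.

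The oxidative stress genes regulated by Nrf2 had a median log2 of -0.47, inside the middle 50% of expressed genes, and of -0.24 with centring. In the values as deposited all 9 expressed genes of this list were lower in KO, 3 of them by more than 1.5-fold, beside 75.6% and 19.9% of all expressed genes. Hmox1, heme oxygenase (log2 -0.09), and Gclm, of glutathione synthesis (-0.23), were lower by less than the median of expressed genes, so that their direction turned with centring. Among them, Prdx1, a peroxiredoxin, was at 856 FPKM in WT and at 710 in KO. Gclc, of glutathione synthesis, had 92.9 and 55.1, and Txnrd1, thioredoxin reductase, 82.2 and 59.2. Nqo1, a quinone reductase, was 4.75-fold lower in KO, at 13.1 in WT and 2.77 in KO, and Slc7a11 was below the limit for expressed genes. A list called inducer receptors, for glucocorticoids, IL-6 and IL-1, had a median of -0.05 over 4 genes, which turned to 0.18 with centring. IL-1 is not among the inducers named above. Il1r1, the IL-1 receptor, was higher in KO (28.2 in WT and 56.5 in KO). Il6st, the shared signalling chain of the IL-6 family, had 23.2 in WT and 24.1 in KO, Il6ra had 17.7 and 15.8, and the glucocorticoid receptor gene Nr3c1 had 12.0 and 10.0.

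**Figure D5:**
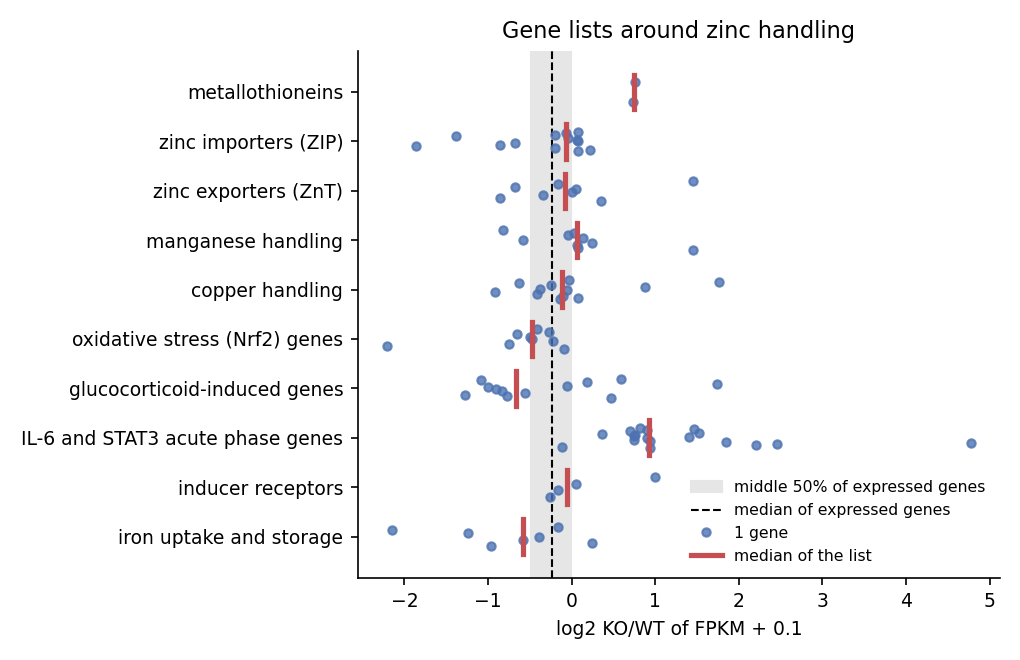
Log2 KO/WT of FPKM + 0.1 (x axis) for each gene of 10 lists (blue points) with each list's median as a red bar, against the middle 50% (grey) and the median (dashed) of expressed genes. The acute phase list and the metallothioneins lie to the right, with medians of 0.92 and 0.75, the iron and glucocorticoid medians, -0.58 and -0.66, lie to the left of the grey band, and the Nrf2 median, -0.47, lies inside it.

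Manganese handling was examined as the process that Slc30a10, Slc39a14 and Slc39a8 share. Of 9 genes, 6 were higher and 3 lower in KO, beside 24.4% and 75.6% of expressed genes, with a median log2 of 0.06. The higher genes include Slc30a10, Slc39a14 and Slc39a8 themselves, and the other genes of the list went both ways. Slc30a10 was the only 1 more than 1.5-fold higher, where 4.20% of expressed genes were. Arg1, the manganese-dependent arginase of the urea cycle, was the only 1 more than 1.5-fold lower, at 1036 FPKM in WT against 586 in KO. Of expressed genes, 19.9% were more than 1.5-fold lower. Sod2, the manganese superoxide dismutase of mitochondria, had 55.4 in WT and 56.3 in KO.

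Markers of other cell types differed between the libraries, mostly downward in KO. Among all expressed genes, 75.6% were lower in KO by any amount and 19.9% by more than 1.5-fold. Of the 6 macrophage markers with a value, all were expressed and 5 were more than 1.5-fold lower, with a summed FPKM of 41.2 in WT and 26.5 in KO. All 5 endothelial markers were more than 1.5-fold lower, with sums of 26.6 and 15.7, and all 6 stellate cell markers were lower, 3 by more than 1.5-fold, with sums of 100.3 and 61.8. Of the 6 neutrophil markers, 3 were expressed and all 3 were more than 1.5-fold lower, with sums of 14.7 and 7.78, and Ly6g and Camp were listed at 0 in both libraries. Cholangiocyte markers, of which 3 of 5 were expressed and lower, summed to 29.8 in WT and 25.7 in KO. Erythroid markers, of which 3 of 5 were expressed, 2 lower and 1 higher, summed to 295 and 252. Of 8 pancreatic acinar markers, 6 were listed at 0 in both libraries, and Cela1, at 8.77 in WT and 18.8 in KO, made up most of the sum. Slc39a4 was lower in the same library as these markers, and the part of cell composition in its value was not tested.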

How the data were processed

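Livers of 1 WT and 1 KO sample were analysed. Reads were aligned by the authors with TopHat 2.0.0 to the mouse genome NCBI37 (mm9). The authors assembled transcripts with Cufflinks 1.3.0 and deposited Cuffdiff's FPKM per locus and library, in 1 table. Per the labels the reads were paired, while the paper's methods say single end. The columns of fold change, test statistic, p-value and q-value in the table hold the authors' own comparison and were not used here. Cuffdiff shares fragments among overlapping transcripts by a model, which can move the FPKM of overlapping genes. Read totals were not given in the sources used here.

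Computations used scipy 1.17.1, pandas 2.3.3 and numpy 2.4.6 under Python 3.11.15, and figures matplotlib 3.10.9. Of 38016 loci, 2302 had no symbol, 21 were marked HIDATA and left out, and 850 named several symbols, each given the joint value. Rows of a symbol were summed. Depth was estimated from 4023 single-exon loci of at least 300 bases, among which 117 in WT and 119 in KO lay near the value of 1 fragment. On 1 kb, 1 fragment was worth 0.0189 FPKM in WT and 0.0181 in KO. Counts of fragments behind a value used the longest transcript in GENCODE vM1 (NCBIM37). Intervals are exact Poisson for levels and Clopper-Pearson for ratios, at 95%. PCR duplicates make them too narrow. List medians used log2(FPKM + 0.1) over genes averaging 0.1 FPKM or more, a scale that understates the change of low genes. Folds of single genes used the deposited FPKM. No test across samples was run, since each group is 1 library. The log2 ratio and the ratio interval were tested on simulated libraries with 200 changed genes, drawn with counting error only, which the interval assumes. Depth, transcript lengths, joint rows, list medians and scaling were not tested in this way.

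The 8 genes and all lists were chosen with earlier results of these data known. Named were the 8 genes, the genes of their families by range and counts, Ppard, the 3 most abundant of each other list with the largest fold in each direction, and the 3 abundant genes nearest in ratio to the summed pair. Other genes of the lists, among them Slc7a11, Hmox1, Gclm, Il6ra, Il6st, Nr3c1 and Stat3, and genes that overlap the 8, were named after their values were seen. Alternatives covered scaling, filters, the pseudocount, repeated and joint rows, and transcript length.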

Additional observations from a re-analysis of the deposited data

How the results depend on the processing

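Scaling changed most values and no direction of the 8 genes. With equal upper quartiles, with centring on the expressed genes' median and with equal sums of FPKM, log2 KO/WT was 0.94, 0.98 and 0.77 for Mt1, 0.97, 0.999 and 0.80 for Mt2, and 0.28, 0.31 and 0.11 for Slc39a14. With upper quartiles and with centring it was -0.21 and -0.18 for the Mtf1 row, -1.67 and -1.64 for Slc39a4, 0.27 and 0.30 for Slc39a8, 0.56 and 0.59 for Slc30a1, and 1.68 and 1.72 for Slc30a10. Their other values, with equal sums, moved within counting error. The median of the metallothioneins was 0.95, 0.99 and 0.79 under the 3 scalings, and 0.16 with Mt3 and Mt4 let in by dropping the filter. Medians turned positive, with upper quartiles and with centring, for ZIP (0.14 and 0.17), ZnT (0.12 and 0.16), copper (0.0791 and 0.11) and inducer receptors (0.15 and 0.18), and for ZnT also among genes averaging 1 FPKM or more (0.0032). Manganese moved to 0.26 and 0.30. With centring the Nrf2, glucocorticoid and iron medians were -0.24, -0.43 and -0.34, in place of -0.47, -0.66 and -0.58. Slc39a4 had the largest difference of the 8 genes as deposited, and Slc30a10 with upper quartiles and with centring. The number of the 8 genes past each fold was within 1.5 times the given number in all 24 alternatives. The counting interval of Slc39a14 widened from a log2 half-width of 0.0237 to 0.0605 with the median transcript length. Without rows naming several symbols, Mtf1 has no value. No paired analysis was possible because each genotype is 1 library, and none could be left out. The spread between mice, which limits every comparison, was not measured, and depth limited Mt3 and Mt4.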

Other observations

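Genes of copper and iron, the other metals that metallothioneins or ZIP14 can bind or carry, were counted in the same way. Of 12 copper-handling genes, 9 were lower and 3 higher in KO, with 2 past 1.5-fold in each direction and a median log2 KO/WT of -0.12, which turned to 0.11 with centring. Of all expressed genes 75.6% were lower, 19.9% past 1.5-fold, so the counts of lower genes are near those of all genes, and 4.20% were past 1.5-fold higher. Sod1, the copper and zinc superoxide dismutase, stood at 754 FPKM in WT against 736 FPKM in KO. Cp, the copper-carrying plasma protein ceruloplasmin, had 353.5 in WT and 648 in KO, and Atox1, the copper chaperone, had 125 in WT and 66.4 in KO. The row that names Sco2 together with Odf3b and Tymp had 10.6 in WT and 36.2 in KO, a joint value in which the genes cannot be told apart.

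Of 8 genes of iron uptake and storage, 7 had a value, with 6 lower in KO, 1 higher, and 3 more than 1.5-fold lower, with a median log2 of -0.58, and of -0.34 with centring, beside the same shares of all expressed genes. The row of Ftl1, the ferritin light chain, also names AC151602.1 and was at 4641 FPKM in WT and at 1970 in KO. Fth1, the ferritin heavy chain, had 1814 in WT and 1384 in KO. Hamp, which encodes the iron hormone hepcidin, was 4.45-fold lower in KO, at 634 in WT and 143 in KO, and Slc11a2, an importer of iron and manganese, had 13.2 in WT and 15.6 in KO.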
